A study of Mus musculus with 2 samples.

Results

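The muscle program read here comprised 36 genes: the regulators that make a cell a skeletal muscle cell, the machinery that lets the cells fuse and couples their excitation to contraction, and the proteins of the sarcomere. All 36 were matched by symbol to the quantified table, out of 43346 mouse genes. The list was chosen with the levels and the ratio between the libraries already known, so both are given as a description and no p-value is attached to them. Total RNA of neural tube from mouse embryos of the strain B6NCrl at embryonic day 13.5 was sequenced in 2 libraries, labelled biological replicates 1 and 2 of 1 untreated group. The labels describe male and female embryos pooled, healthy tissue, and 10 ng of RNA with spike-in RNA for each library. No genetic change, treatment or second tissue was part of the design, so only the libraries could be set against each other.

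Skeletal muscle forms from the somites that flank the neural tube. Progenitors committed by the factors Myf5 and Myod1 switch on Myog, leave the cell cycle, fuse through the membrane protein Mymk, and assemble actin and myosin filaments into sarcomeres. Embryonic fibres use developmental family members, such as the myosin heavy chains Myh3 and Myh8 and the actin Actc1, which are largely replaced after birth by adult members such as Myh1, Myh2, Myh4 and Acta1. Several of the genes read here, among them Actc1, Tnnt2, Tnnc1, Myh7 and Myl4, are also used by heart muscle.

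Promoters of 5 genes carry the contrasts described further on, and are shown for that reason: the muscle regulator Myog, the embryonic myosin Myh3, the developmental and adult actins Actc1 and Acta1, and Tnnt2, the single gene that was lower in replicate 2 by the fold used. Each sequence is the 250 bases before the gene's start in RefSeq, build GRCm38.p6, which uses the mm10 coordinates of the files, written 5′ to 3′ on the gene's strand. Capitals mark the E-box letters CANNTG that muscle regulators of the Myod1 family recognise, the letters TATAAA, and the CArG box bound by serum response factor.
Myog, chr1:134289754-134290003, plus strand: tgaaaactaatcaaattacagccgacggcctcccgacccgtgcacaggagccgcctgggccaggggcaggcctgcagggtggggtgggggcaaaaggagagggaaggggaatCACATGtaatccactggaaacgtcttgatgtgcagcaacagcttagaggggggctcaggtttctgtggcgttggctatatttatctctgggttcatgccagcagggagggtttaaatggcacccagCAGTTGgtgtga
Myh3, chr11:67078050-67078299, plus strand: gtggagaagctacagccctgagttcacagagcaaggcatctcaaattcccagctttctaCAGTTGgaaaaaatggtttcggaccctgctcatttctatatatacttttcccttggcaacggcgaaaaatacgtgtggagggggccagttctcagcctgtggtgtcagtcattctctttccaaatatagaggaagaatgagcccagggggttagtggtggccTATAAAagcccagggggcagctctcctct
Actc1, chr2:114052876-114053125, minus strand: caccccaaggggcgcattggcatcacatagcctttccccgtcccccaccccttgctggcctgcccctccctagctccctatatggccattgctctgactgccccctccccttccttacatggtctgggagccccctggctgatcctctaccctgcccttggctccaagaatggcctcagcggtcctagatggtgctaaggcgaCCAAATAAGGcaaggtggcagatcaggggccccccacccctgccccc
Acta1, chr8:123894776-123895025, minus strand: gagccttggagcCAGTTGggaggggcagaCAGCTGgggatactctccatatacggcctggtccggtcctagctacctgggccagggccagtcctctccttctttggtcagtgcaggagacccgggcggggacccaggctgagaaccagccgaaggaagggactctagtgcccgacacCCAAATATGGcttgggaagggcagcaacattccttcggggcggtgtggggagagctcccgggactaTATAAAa
Tnnt2, chr1:135836084-135836333, plus strand: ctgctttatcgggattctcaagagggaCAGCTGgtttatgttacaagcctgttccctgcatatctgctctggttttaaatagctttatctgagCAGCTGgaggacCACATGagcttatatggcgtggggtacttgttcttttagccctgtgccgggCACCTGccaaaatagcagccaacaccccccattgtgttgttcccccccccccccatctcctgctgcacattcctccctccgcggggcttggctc

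Distances are to the RefSeq start, which can differ from the GENCODE start used for the gene positions given further on. The Myog window held an E-box starting 12 bases before the RefSeq start and another 138 bases before it. By GENCODE, Myog starts at 134289989, so the nearer E-box lies inside that gene span. The Actc1 window lies wholly inside the GENCODE span of Actc1, which reaches 114053548. In Myh3, TATAAA began 29 bases and an E-box 191 bases before the start. Both actin promoters held a CArG box, at 47 bases in Actc1 and 73 bases in Acta1, and the Acta1 window added E-boxes at 221 and 238 bases and TATAAA at 7 bases. The Tnnt2 window, the first of 2 listed for that gene, held 4 E-boxes, at 94, 145, 157 and 223 bases.

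RefSeq windows were at hand for 28 of the 36 genes, 31 windows in all. CANNTG, searched on both strands, was in 80.7% of them and in 66.2% of all 32851 windows of the same length. The form CAGCTG, a subset of CANNTG, was in 38.7% against 13.0%. A CArG box was in 9.68% against 1.47%, a site for the muscle factor family MEF2 in 16.1% against 2.92%, and TATAAA, searched on the gene's strand, in 16.1% against 7.59%. These are matches of letters in a short window and describe the sequences only.

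The libraries held 34125110 and 22311849 estimated reads, of which 32151162 and 21084234 fell on mouse genes. Markers of neural tissue were high and close in both libraries. All 8 on the list were at 1 TPM or more, and Tubb3, the neuronal tubulin, stood at 1245 TPM in replicate 1 and 1175 in replicate 2. TPM scales reads by transcript length and library size, so levels of different genes can be compared within a library. The 36 muscle genes together took 0.0432% of gene reads in replicate 1 and 0.0722% in replicate 2. Tpm1, which other tissues also use, gave 5724 of these 13874 reads in replicate 1 and 4565 of 15215 in replicate 2.

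At 1 TPM or more in both libraries, 26 of the 36 muscle genes were detected, and 30 reached that level in replicate 2. Among protein-coding genes as a whole, 61.8% were detected in both. The summed level of the 36 muscle genes was 409 TPM in replicate 1 and 720.1 in replicate 2, of which Tpm1 gave 156 and 198. Their median gene stood at 2.42 and 6.68 TPM. In bulk tissue, fewer muscle cells and less RNA per muscle cell cannot be told apart.

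Most of these genes had the higher level in replicate 2. Ratios were taken as replicate 2 over replicate 1 after scaling that centres the bulk of genes (trimmed mean of M values), and 32 of the 36 genes had the mean count of 10 needed to enter. Of these, 24 were at least 2-fold higher in replicate 2, 1 was at least 2-fold higher in replicate 1, and 7 lay between. Among all 17428 genes that entered, 1.96% were 2-fold higher in replicate 2 and 1.43% in replicate 1, 3.39% in all. The median log2 ratio was 1.31 for the 32 muscle genes and 0.00 for all genes, whose central 95% ran from -0.79 to 0.90. Because this difference helped to choose the list, nothing is read from the counts beside the background. Each value in parentheses after a log2 ratio is its 95% exact binomial interval, which covers counting error only.

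**Figure D1:**
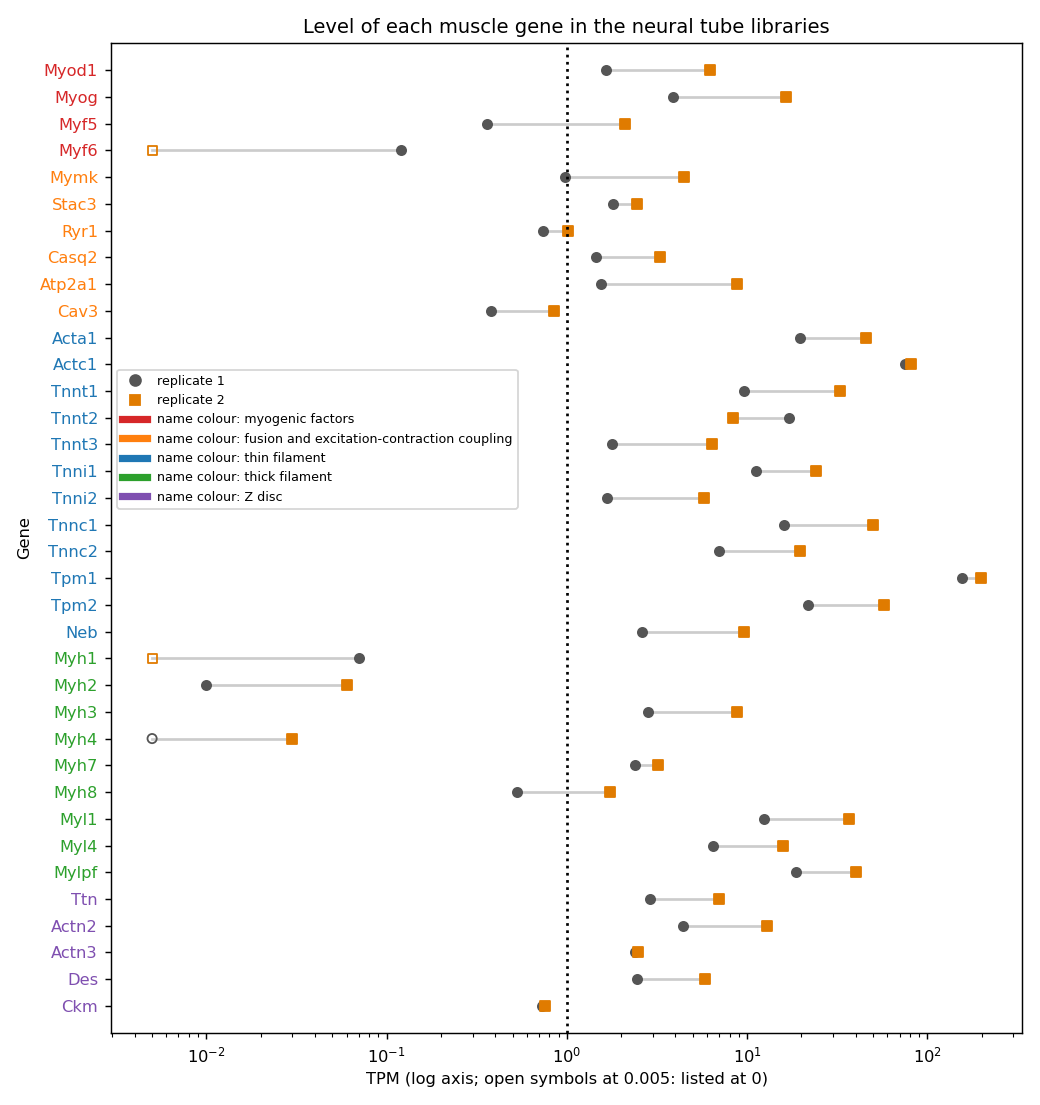
TPM (log axis) of the 36 muscle genes in replicate 1 (circles) and replicate 2 (squares), with gene names coloured by role and a dotted line at 1 TPM. The replicate 2 symbol lies to the right for 33 genes, and Tnnt2, Myf6 and Myh1 are the exceptions.

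Among the myogenic regulators, the commitment factor Myod1 stood at 1.64 TPM in replicate 1 and 6.20 in replicate 2, a log2 ratio of 1.86 (1.44 to 2.30). Myog, which drives terminal differentiation, stood at 3.90 and 16.5 TPM, a log2 ratio of 2.02 (1.72 to 2.33). Myf5, the earliest of these factors in the embryo, stood at 0.360 and 2.11 TPM, a log2 ratio of 2.47 (1.69 to 3.40). Replicate 2 was the higher library for all 3 factors with a mean count of 10 or more. Myod1 lies on chromosome 7 from 46376474 to 46379099 and Myog on chromosome 1 from 134289989 to 134292548. Myf6, a factor of late fibre maturation, had 3 counts in replicate 1 and 0 in replicate 2, where a count of 0 allows up to 0.182 TPM, so no fold is given for it.

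Among fusion and calcium handling genes, 4 of 6 were at least 2-fold higher in replicate 2, beside 1.96% of all genes. Mymk, the fusion protein of myoblasts, stood at 0.970 TPM in replicate 1 and 4.46 in replicate 2, a log2 ratio of 2.13 (1.51 to 2.82). Atp2a1, the fast-muscle calcium pump of the sarcoplasmic reticulum, stood at 1.55 and 8.76 TPM, a log2 ratio of 2.09 (1.73 to 2.47). Both ratios lay past 4-fold, at 4.38-fold for Mymk and 4.26-fold for Atp2a1. Casq2, a calcium store protein of slow and cardiac muscle, stood at 1.45 and 3.30 TPM, a log2 ratio of 1.11 (0.69 to 1.54). Cav3, the caveolin of muscle membranes, rested on 9 and 13 counts, and its log2 ratio of 1.11 had an interval from -0.21 to 2.54 that includes no difference. Stac3 and Ryr1, the adaptor and the calcium release channel of excitation-contraction coupling, lay within 2-fold. Stac3 stood at 1.80 and 2.45 TPM, with a log2 ratio of 0.53 (-0.14 to 1.20), and Ryr1 at 0.740 and 1.01 TPM, with a log2 ratio of 0.39 (0.13 to 0.66).

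The thin filament held the most abundant genes of the program, and all 12 were detected in both libraries. Positions are on mm10: Tpm1 on chromosome 9 from 67022590 to 67049406, Actc1 on chromosome 2 from 114047282 to 114053548, Acta1 on chromosome 8 from 123891769 to 123894751, and Tnnt2 on chromosome 1 from 135836354 to 135852260. Tropomyosin 1, Tpm1, was highest at 156 TPM in replicate 1 and 198 in replicate 2, a log2 ratio of only 0.27 (0.22 to 0.33). Cardiac alpha-actin, Actc1, the actin of embryonic muscle and of heart, stood at 75.3 and 81.2 TPM, a log2 ratio of 0.05 (-0.04 to 0.15). Skeletal alpha-actin, Acta1, stood at 19.5 and 45.7 TPM, a log2 ratio of 1.17 (1.01 to 1.32). The interval of the developmental actin includes no difference, while the adult actin was more than 2-fold higher in replicate 2. Their coding sequences were identical at 976 of 1131 aligned bases, 86.3%, and the deposited posterior standard deviation of each gene's count was 0.

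Troponin is the calcium switch of the thin filament, made of a calcium-binding C subunit, an inhibitory I subunit and a tropomyosin-binding T subunit. Slow Tnnc1 stood at 16.0 TPM in replicate 1 and 49.9 in replicate 2, a log2 ratio of 1.58 (1.35 to 1.82). Fast Tnnc2 stood at 6.98 and 19.6 TPM, a log2 ratio of 1.43 (1.06 to 1.81). The exons of Tnnc2 share 74.0% of their bases with Ube2c on the opposite strand, a cell division gene with 1193 and 1026 counts, and since the handling of strand is not given in the sources used here, its level is uncertain. The inhibitory subunits kept the same direction. Slow Tnni1 stood at 11.2 and 24.1 TPM, a log2 ratio of 1.14 (0.90 to 1.39), and fast Tnni2 at 1.66 and 5.78 TPM, a log2 ratio of 1.64 (0.93 to 2.42).

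The 3 troponin T genes differed in direction. Slow Tnnt1 stood at 9.55 TPM in replicate 1 and 32.6 in replicate 2, a log2 ratio of 1.65 (1.39 to 1.91). Fast Tnnt3 stood at 1.78 and 6.38 TPM, a log2 ratio of 1.71 (1.12 to 2.34). Tnnt2, the form of the heart and of early embryonic skeletal muscle, went the other way, at 17.1 and 8.32 TPM, a log2 ratio of -1.04 (-1.34 to -0.75). It was the only muscle gene of the 32 at least 2-fold higher in replicate 1, and its ratio lay just past that fold. With counts scaled by the spike-in RNA it fell short of 2-fold, which left 0 of 32 genes in that direction. Tnnt2 and Tnni1 are neighbours on chromosome 1, with 25364 bases between them, yet their ratios had opposite signs. So did those of Tnnt1 and the cardiac Tnni3, at 1.65 and -1.05, which lie 1922 bases apart on chromosome 7. The fast pair Tnni2 and Tnnt3 lie 54425 bases apart on chromosome 7 and were both higher in replicate 2.

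The remaining thin filament genes were Tpm2, a tropomyosin of slow and smooth muscle, and Neb, the giant ruler protein nebulin. Tpm2 stood at 21.7 TPM in replicate 1 and 57.4 in replicate 2, a log2 ratio of 1.25 (1.11 to 1.39). Neb stood at 2.62 and 9.65 TPM, a log2 ratio of 1.60 (1.32 to 1.88). Beside Tpm2, 0 of 9 genes of the smooth muscle list were 2-fold apart, with a median log2 ratio of 0.11 and sums of 50.4 and 74.8 TPM. Its actin Acta2 stood at 22.8 and 43.8 TPM, a log2 ratio of 0.88.

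**Figure D2:**
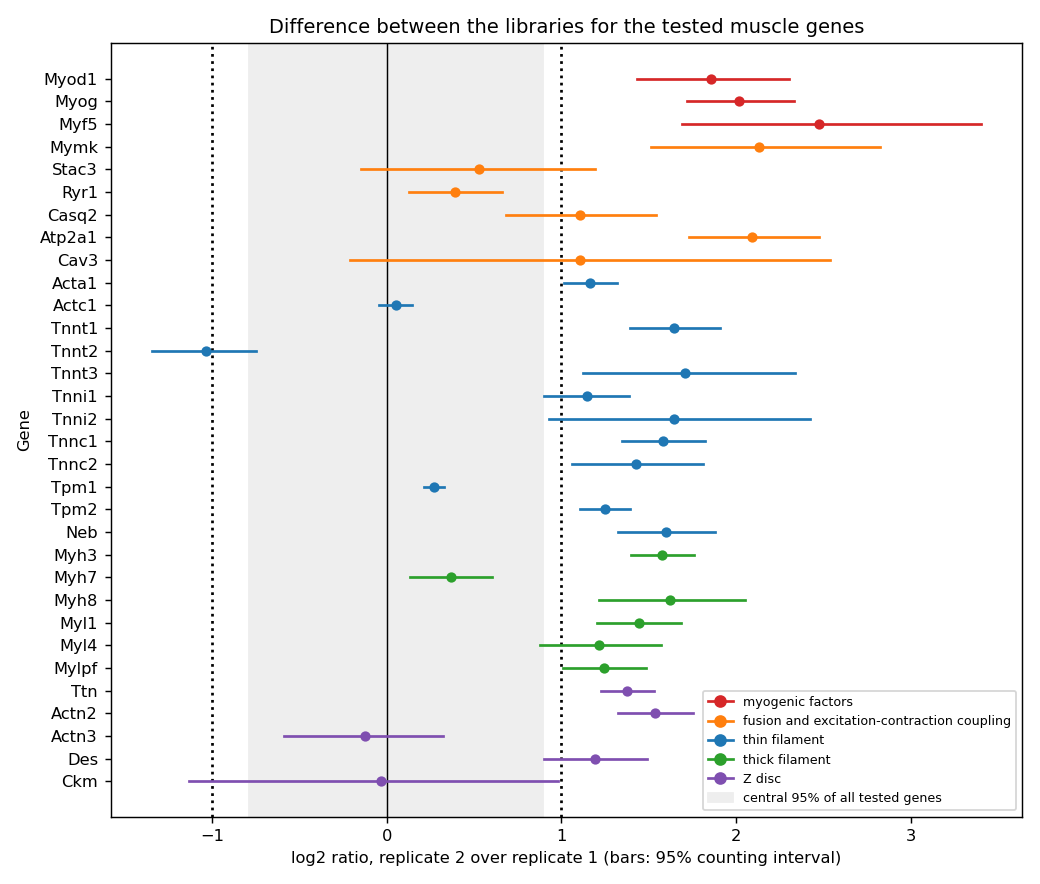
Log2 ratio of replicate 2 over replicate 1 for the 32 muscle genes at a mean count of at least 10, coloured by role, with 95% counting intervals. Dotted lines mark 2-fold and the grey band the central 95% of all 17428 genes, from -0.79 to 0.90. Tnnt2 at -1.04 is the only point left of the band, and 24 points lie beyond 2-fold on the right.

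Myosin heavy chain is the motor of the thick filament. The embryonic form Myh3 stood at 2.81 TPM in replicate 1 and 8.75 in replicate 2, a log2 ratio of 1.58 (1.40 to 1.76). The perinatal form Myh8 stood at 0.530 and 1.74 TPM, a log2 ratio of 1.62 (1.22 to 2.05). Myh7, the motor of slow fibres and of heart ventricles, stood at 2.39 and 3.21 TPM, a log2 ratio of 0.37 (0.13 to 0.60). The developmental skeletal forms were thus about 3-fold apart, at 2.98-fold for Myh3 and 3.08-fold for Myh8, and Myh7 only 1.29-fold.

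The adult fast myosins were at or near 0. Myh1 had 10.02 estimated counts in replicate 1 and 0 in replicate 2, where a count of 0 allows up to 0.0458 TPM. Its mean count was below 10, so no fold is given for it. Myh2 had 1.11 and 5.01 estimated counts, and its log2 ratio of 2.47 had a counting interval from -0.24 to 8.48. Myh4 had 0 and 2.36, and a count of 0 in replicate 1 allows up to 0.0226 TPM. These values are too low to order the 3 genes. Myh1, Myh2, Myh3, Myh4 and Myh8 lie side by side on chromosome 11, from 67078300 to 67308634, on 1 strand. The coding sequences of Myh3 and Myh8 were identical at 80.5% of aligned bases and those of Myh1 and Myh2 at 91.0%. The few reads of these adult genes could thus have been divided among them. The deposited posterior standard deviation of each adult fast gene's count was at most 1.01 reads in either library.

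Light chains that stiffen the myosin neck were more abundant per length than any heavy chain. The fast regulatory chain Mylpf stood at 18.6 TPM in replicate 1 and 40.3 in replicate 2, a log2 ratio of 1.24 (1.01 to 1.48). The fast alkali chain Myl1 stood at 12.5 and 36.9 TPM, a log2 ratio of 1.44 (1.21 to 1.69). Myl4, the alkali chain of embryonic muscle and of the heart's atria, stood at 6.47 and 15.9 TPM, a log2 ratio of 1.22 (0.88 to 1.57). All 3 were more than 2-fold higher in replicate 2, Myl4 included.

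Genes that anchor and fuel the sarcomere were divided. Titin, Ttn, the elastic filament, stood at 2.88 TPM in replicate 1 and 6.98 in replicate 2, a log2 ratio of 1.38 (1.23 to 1.53). The Z-disc crosslinker Actn2 stood at 4.38 and 12.9 TPM, a log2 ratio of 1.54 (1.33 to 1.75). Desmin, Des, the intermediate filament of muscle, stood at 2.45 and 5.84 TPM, a log2 ratio of 1.19 (0.90 to 1.49). These 3 joined the genes that were higher in replicate 2. Actn3, the crosslinker of fast fibres, stood at 2.39 and 2.47 TPM, a log2 ratio of -0.13 (-0.59 to 0.32). Muscle creatine kinase, Ckm, which buffers energy in mature fibres, stood at 0.730 and 0.760 TPM, with a log2 ratio of -0.04 (-1.13 to 0.98). For Ckm the interval allows a difference of about 2-fold either way.

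Within each library, family members were compared as shares of their summed TPM, to read developmental against adult forms. Among the 6 myosin heavy chains, Myh3 and Myh8 held 57.5% in replicate 1 and 76.1% in replicate 2, and Myh7 held 41.1% and 23.3%. Adult fast chains held the small remainder in both. Actc1 held 79.4% and 64.0% of the 2 sarcomeric actins. Myh3 and Myh8 held most of the myosin level, and Actc1 most of the actin level, in both libraries. The share of Myh3 and Myh8 was higher in replicate 2, while Myh7, the form of slow fibres and heart ventricles, had the lower share there. The Actc1 share was lower in replicate 2.

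Troponin T changed its leading member between the libraries. Tnnt2 held 60.1% of the troponin T level in replicate 1 and 17.6% in replicate 2, and slow Tnnt1 held 33.6% and 68.9%. The other shares differed less. Slow Tnni1 held 87.1% and 80.7% of troponin I, slow Tnnc1 69.6% and 71.8% of troponin C, and embryonic Myl4 34.2% and 30.1% of Myl4 and Myl1. The troponin C share includes Tnnc2, whose level is uncertain for its overlap with Ube2c. Here the fast alkali chain Myl1 was the higher of the pair in both libraries. With 2 libraries the spread of each share is its difference between them.

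**Figure D3:**
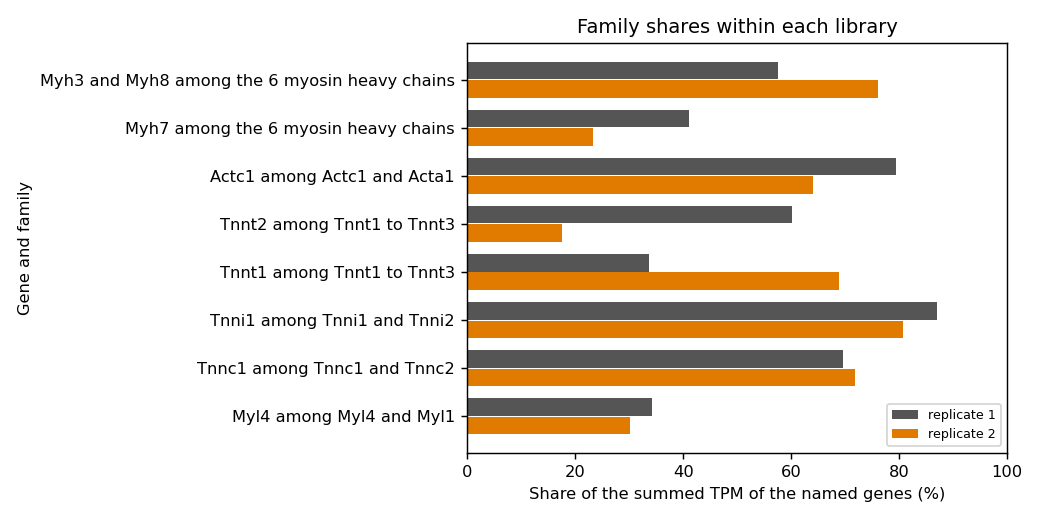
Share (%) of the summed TPM of each family held by the named gene or genes, in replicate 1 (grey bars) and replicate 2 (orange bars). Tnnt2 holds 60.1% in replicate 1 and 17.6% in replicate 2, while the shares of Tnnc1 differ least, at 69.6% and 71.8%. The Tnnc1 share rests on Tnnc2, whose level is uncertain.

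Tpm1 was read by its transcripts, since striated muscle, brain and most other cells end its protein with different exons. The grouping by exon was made after the transcript values were seen. Of 21 annotated transcripts, 4 code through the exon that striated muscle uses at the end (chromosome 9, 67029663 to 67029742), and these held 18.6% of Tpm1 in replicate 1 and 20.6% in replicate 2. Transcripts that end with the exon typical of brain (67024495 to 67024565) held 33.7% and 27.7%. Those with the end exon common to smooth muscle and non-muscle cells (67023362 to 67023441) held 38% and 42.0%. In TPM, the striated group stood at 29.0 and 40.8, the brain group at 52.6 and 54.9 and the common group at 59.4 and 83.2. Most of the Tpm1 level thus came from transcripts without the striated muscle end, in both libraries.

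By their first coding exon, transcripts starting at the internal exon, which give the short tropomyosins, held 50.7% in replicate 1 and 42.6% in replicate 2. Those starting at the upstream exon, which give the long forms found in muscle, held 42.7% and 51.8%. Their level was 66.7 and 103 TPM, a ratio of 1.54, against 1.07 for the internal start. That contrast rests largely on poorly assigned transcripts, Tpm1-213 of the upstream start and Tpm1-212 of the internal start. Tpm1-213 stood at 11.0 and 30.8 TPM and Tpm1-212 at 9.47 and 0 TPM. For Tpm1-212 the posterior standard deviation in replicate 1 was 113 of 346 reads, so the difference between the starts is poorly resolved. The single highest transcript was Tpm1-211, with the internal start and the common end, at 22% and 24.9%. Tpm1-209, with the internal start and the brain end, followed at 20.3% and 17.7%. Tpm1-205, with the upstream start and the striated end, held 11.1% and 14.6%. Tpm1-210 held 12.7% and 9.99%, and Tpm1-213 held 7.06% and 15.5%, but the posterior standard deviation of its count in replicate 1 was 104 of 410 reads, so that difference is poorly resolved.

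**Figure D4:**
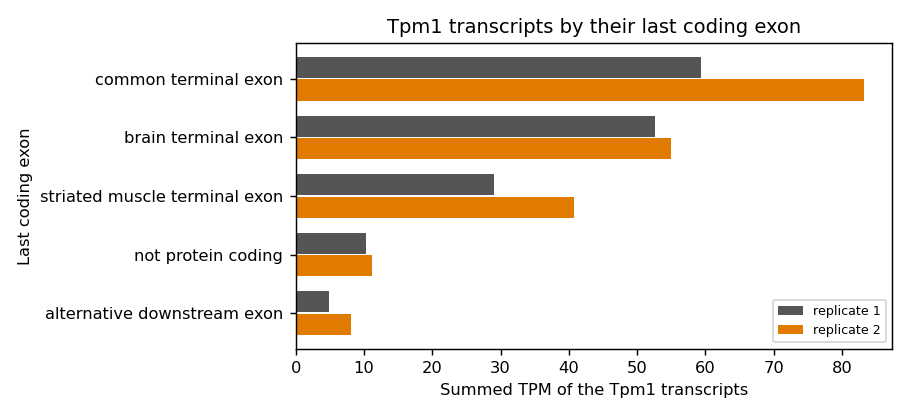
Summed TPM of Tpm1 transcripts grouped by their last coding exon, in replicate 1 (grey) and replicate 2 (orange). The common and brain groups exceed the striated muscle group, at 29.0 and 40.8 TPM, in both libraries.

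Other genes with muscle splice forms gave fewer reads per transcript. Myl1 makes a longer and a shorter light chain from separate promoters. The shorter, Myl1-202 with 450 coding bases, held 58.5% in replicate 1 and 72.9% in replicate 2, and the longer, Myl1-201 with 564 coding bases, held 38.8% and 24.3%. Posterior standard deviations were about 20 reads, at 21.1 of 116 reads for Myl1-202 in replicate 1. In Tpm2, the transcript Tpm2-203 held 64.9% and 43.3% and Tpm2-202 held 33.1% and 37.8%, while the fragment Tpm2-206 was listed at 0 in replicate 1 and 18.7% in replicate 2.

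For Tnnt2, the transcript Tnnt2-207 led in both libraries at 59.9% and 62.4%, while Tnnt2-204 held 18.4% and 17.3% and Tnnt2-205 held 5.71% and 18.6%. The authors' posterior mean percentages for Tnnt2-207 were lower, at 40.4% and 29.9%, so its share is uncertain while it exceeded Tnnt2-204 and Tnnt2-205 by both estimates. Tnnt1 was led by Tnnt1-203 at 45.8% in replicate 1 and by Tnnt1-201 at 39.8% in replicate 2, on 94.9 and 173 reads. Tnnt3 spread over 6 transcripts at 10% or more in either library, on 35 and 76 reads in all, and its splicing was not resolvable at this depth. Myh7 was led by Myh7-201, at 98.7% and 99.2%, or 86.5% and 79.8% by the posterior mean.

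For the giant proteins the gene level depends on short annotated transcripts. Neb-204, a noncoding model of 1000 bases, held 70.9% of the Neb level in replicate 1 and 79.2% in replicate 2 on 37.9 and 98.7 reads. Ttn-215, a coding fragment model of 2159 bases, held 52.1% and 64.0% of the Ttn level on 69.9 and 132 reads. These transcripts were picked out after their values were seen. Levels of Neb and Ttn are therefore not comparable with those of genes counted over their full length, whereas their ratios between libraries rest on all 162 and 324 reads of Neb and 556 and 954 reads of Ttn.

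A wider list of 55 other muscle genes was read next, of which 48 had a mean count of 10 or more. At least 2-fold higher in replicate 2 were 16 of them, and 2 were at least 2-fold higher in replicate 1, beside 1.96% and 1.43% of all genes. The median log2 ratio was 0.71. Largest in the upward direction was Cacna1s, the voltage sensor of excitation-contraction coupling, at 3.09 (1.92 to 4.72). The triad protein Trdn followed at 2.47 (0.97 to 4.64) and the Z-disc cap Tcap at 2.18 (0.88 to 3.88). These ratios rest on few reads, 6 and 36 for Cacna1s, 4 and 16 for Trdn, and 6 and 19 for Tcap. Cacna1s stood at 0.21 TPM in replicate 1 and 0.95 in replicate 2. The fusion partner Mymx, the micropeptide that acts with Mymk, stood at 1.00 and 2.76 TPM, a log2 ratio of 1.30. The fetal acetylcholine receptor subunit Chrng stood at 0.430 and 1.30 TPM, a log2 ratio of 2.04, and the adult subunit Chrne had 8 and 1 counts. The highest genes of this list are also used by other tissues and lay within 2-fold, among them the MEF2 factor gene Mef2a at 22.3 and 25.0 TPM, the reticulum protein Srl at 21.5 and 24.0 TPM, and Dmd, the dystrophin gene, at 19.2 and 20.9 TPM. The ventricular light chains Myl2 and Myl3, also used by slow fibres, were the 2 genes in the other direction. Myl2 stood at 5.39 and 2.21 TPM, a log2 ratio of -1.28, and Myl3 at 2.69 and 0.810 TPM, a log2 ratio of -1.94.

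Progenitor genes upstream of the program were mostly within 2-fold. Of 8, 1 was at least 2-fold higher in replicate 2, beside 1.96% of all genes, Tcf21 at 1.02 and 2.55 TPM, and none was 2-fold higher in replicate 1. Pax3, which marks dorsal neural tube as well as muscle progenitors, stood at 9.67 TPM in replicate 1 and 13.0 in replicate 2. Lbx1, of migrating muscle precursors and dorsal spinal neurons, stood at 12.7 and 12.2 TPM. Pax7, of muscle progenitors and dorsal neural tube, was low at 0.380 and 0.530 TPM. The neural tube itself uses all 3 of these genes, so their level does not count muscle progenitors.

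Genes of heart muscle were mostly higher in replicate 1. Of 10, 6 had a mean count of 10 or more: 5 were at least 2-fold higher in replicate 1 and 1, the cardiac factor gene Tbx20 at 0.05 and 0.32 TPM, in replicate 2. Among all genes, 1.43% and 1.96% were that far apart in these directions. The atrial peptide Nppa stood at 4.56 TPM in replicate 1 and 0.280 in replicate 2, a log2 ratio of -3.91 (-6.43 to -2.52) that rests on 79 reads against 3.05. The cardiac inhibitory troponin Tnni3 stood at 3.12 and 1.35 TPM, the atrial light chain Myl7 at 2.61 and 1.28 TPM, and the cardiac myosin Myh6 at 0.920 and 0.270 TPM. For Myl7, on 29 and 9 reads, the log2 ratio of -1.04 had an interval from -2.35 to 0.03 that includes no difference, and the intervals of the other 4 lay below 0. Over the whole list, 8 of 10 genes had the higher TPM in replicate 1, and their sum was 12.9 TPM in replicate 1 and 4.01 in replicate 2. Of the defining genes, Gata4 and Nppb had 7 and 5 counts in replicate 1 and 0 in replicate 2, and Nkx2-5 had 16 and 1. Tnnt2, Myl2 and Myl3 shared the direction of this list, and Actc1 and Myh7, which heart also uses, lay within 2-fold. Other genes that heart also uses went the other way, higher in replicate 2. Among them were Tnnc1 by 2.99-fold, Actn2 by 2.90-fold, Ttn by 2.60-fold, Myl4 by 2.33-fold, Des by 2.29-fold and Casq2 by 2.15-fold. The part of heart RNA in these values was not tested.

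**Figure D5:**
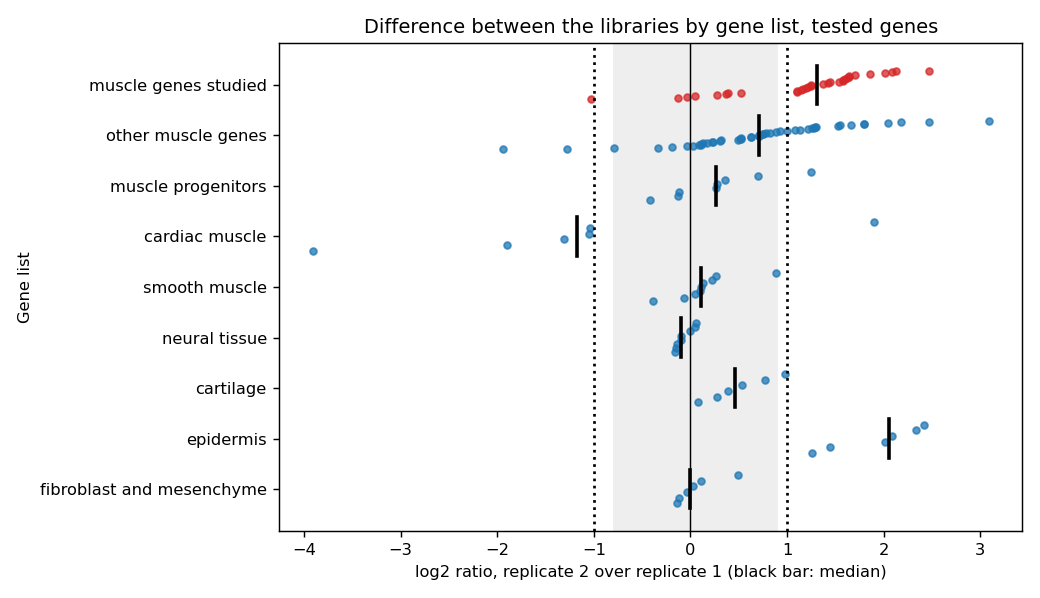
Log2 ratio of replicate 2 over replicate 1 for the genes at a mean count of at least 10 in each list, with black bars at the medians, dotted lines at 2-fold and a grey band for the central 95% of all genes. Medians lie at 1.31 for the muscle genes studied, 2.05 for epidermis and -1.18 for heart, while neural, smooth muscle and fibroblast lists lie near 0.

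Other tissues around the tube were read in the same way, beside the muscle genes. All 6 epidermal genes were at least 2-fold higher in replicate 2, beside 1.96% of all genes, with a median log2 ratio of 2.05 and sums of 5.57 TPM in replicate 1 and 20.4 in replicate 2. The basal keratin Krt14 stood at 1.18 and 5.49 TPM. All 6 cartilage genes lay above 0, with a median of 0.46, but none reached 2-fold, as Col2a1 at 50.7 and 68.2 TPM shows. Genes of fibroblasts and mesenchyme had a median of -0.01 and neural genes one of -0.10, with none of 6 and none of 8 at 2-fold. Epidermal genes were thus higher in the library with more skeletal muscle RNA, and their part in the result was not tested.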

How the data were processed

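Both libraries were used as deposited by the submitters, with 1 gene table and 1 transcript table each. Per the labels, they measure total RNA of neural tube, and per the submitters' notes the build is mm10 with GENCODE M4. Aligner, quantifier and handling of strand: not given in the sources used here. Reads estimated per gene are the deposited expected counts and were rounded. The deposited TPM and FPKM scale them by length, and TPM includes spike-ins. The deposited isoform percent is a transcript's share of its gene's TPM. The authors' posterior mean count served as an alternative, and the deposited posterior SD, a score in reads, to judge assignment.

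Symbols and positions came from GENCODE M21 by identifier. The members and lists were chosen with earlier results of these data known. Log2 ratios used TMM scaling from edgeR 4.0.16, with 0.5 added to each count, over genes whose mean count reached 10, and no test was made, since the 2 libraries form 1 group. Alternatives used size factors of DESeq2 1.42.0, library totals, spike-ins, other filters, folds and units. Depth limits low genes: a count of 0 was taken to allow 3 counts. The ratio and interval were tested on simulated data that held counting error only. Intervals were checked there for changed genes of high count, so not at low counts or with further spread between libraries. The rule named all 36 genes, from each other list the 4 of highest mean TPM and the 3 of largest ratio in either direction, and transcripts at 10% or more of their gene; other genes were picked for their role after values were seen, as were the Ttn and Neb transcripts.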

Additional observations from a re-analysis of the deposited data

How the results depend on the processing

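The count of detected genes, 26, stayed within 1.5 times under the other detection levels, FPKM and either library alone (26 without replicate 2 and 30 without replicate 1). The same 24 genes were 2-fold higher in replicate 2 under DESeq2 size factors, total gene counts, spike-in counts, posterior mean counts, 2 added counts, the TPM ratio and a 1.5-fold limit. At 3-fold, 10 genes passed in replicate 2 and 0 in replicate 1. The 1 gene higher in replicate 1, Tnnt2, became 0 with spike-in scaling, which moves the median log2 ratio of all genes to 0.09, and 3 genes passed without a count filter. The filter at a mean count of 100 kept 23 genes, 18 of them higher in replicate 2. The Tnni1 share of troponin I moved from 83.9% to 89.1% with counts in place of TPM, because counts are not divided by transcript length. No ratio of 2-fold or more changed sign under these settings. Posterior isoform percentages moved 10 of 29 transcript shares beyond the spread between libraries, all of them in genes other than Tpm1 (Tnnt2-207 from 61.1% to 35.2%). No paired analysis was possible because there is 1 group. Reads of 11 genes could include those of genes overlapping on the other strand, over more than 10% of exon bases for Tnnc2, Atp2a1 and Ckm. Depth limits genes with few reads, such as Cav3, Ckm, Myf6 and the adult fast myosins.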
